A study of Mus musculus with 3 samples.

Results

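Serum withdrawal from embryonic kidney explants was described by setting 1 array of explants grown without serum against 1 array of explants grown with it, 2 of the 3 arrays of the series. The arrays were chosen by their labels, and every gene with a probe set of exactly 1 symbol was compared, 19938 genes in all. The explants were kidneys of C57BL/6 mouse embryos at embryonic day 11.5, with no allele named in the labels, which were kept on Transwell filters for 48 h. Fetal bovine serum made up 10% of the DMEM in one group (serum) and was left out of it in the other (serum-free), and the third array came from serum-free DMEM with added retinoic acid, at a dose not given in the sources used here. How many kidneys were pooled for an array, and the sex of the embryos, are not given either. With 1 array per medium there is no error and no test. Every difference below is a description of these arrays, given as log2 intensity without serum minus log2 intensity in serum.

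At this stage the ureteric bud, an epithelial tube, branches into the metanephric mesenchyme. The mesenchyme releases GDNF, which acts through the RET receptor at the bud tips, and the bud in turn induces mesenchymal progenitors to condense and become nephron epithelium, with WNT4 as a central signal. Around them lie stroma, vessels, the smooth muscle precursors of the ureter and macrophages, which seed the organ early in fetal life and clear dying cells. Serum brings growth factors, lipoproteins, hormones, bound vitamin A and adhesive proteins to such a culture, and DMEM alone supplies salts, glucose, amino acids and water-soluble vitamins.

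The labelled tissue could be recognised on both arrays. Of the nephron progenitor genes, Six2 stood at 11.03 in serum and 11.26 without it, Eya1 at 11.10 and 11.37, and Wt1 at 10.85 and 10.65. Of 15 measured genes of mature podocytes and tubules 2 reached the floor, which was set at the median of all gene values (7.12 on the log2 scale, an intensity of 139.5). Calls required a ratio of 2 or more between the arrays, with the larger value reaching the floor. By this rule 89 genes were higher without serum, 0.446% of the 19938 genes measured, and 71 were lower, 0.356%. With shares this small, a list below with 0 genes called says little. The median difference over all genes was 0.00, and among the 10156 genes at the floor the central 90% of differences ran from -0.38 to 0.27. On the edge of the rule, Irf8 at 1.00 counted and Angptl4 at 0.99 did not, and on the other side Dll1 at -1.02 counted and Tmed6 at -0.99 did not. In 38 of the 89 higher genes the serum value lay under the floor, and in 30 of the 71 lower genes the serum-free value did, so that the size of those differences is less certain. The arrays also differed in sex-linked transcripts. Xist was at 10.84 in serum and 11.48 without it, and the Y-linked gene Eif2s3y at 8.38 and 7.46. The part of the embryos' sex in the differences below was not tested.

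**Figure D1:**
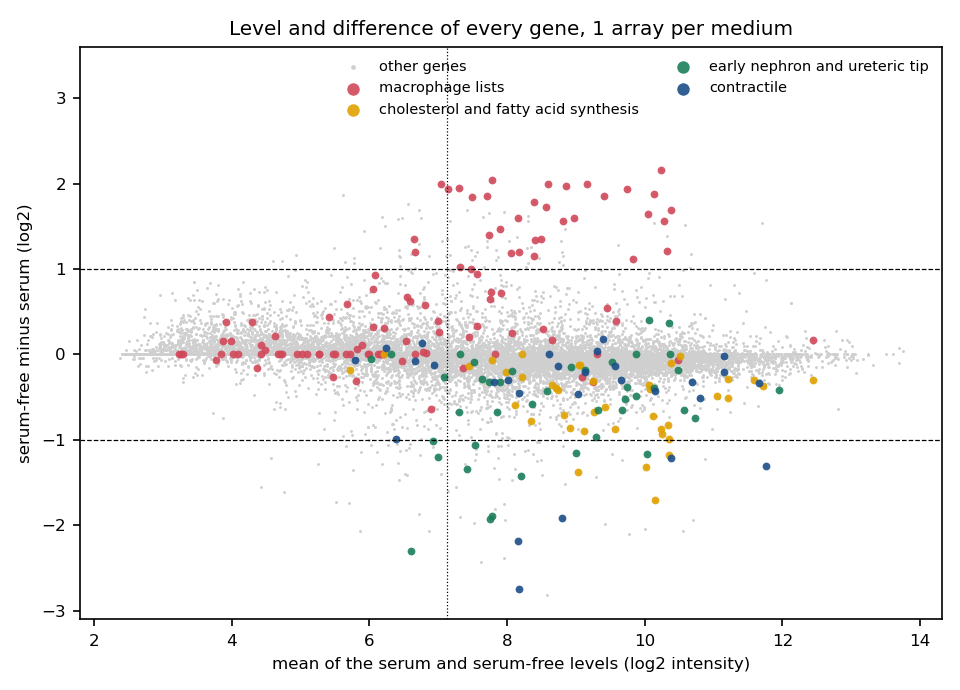
Difference between the serum-free and the serum array (log2) against the mean level on both arrays (log2 intensity) for every gene, with the members of 4 groups of lists coloured. The dashed lines mark 2-fold and the dotted line the floor of 7.12, and the macrophage genes above the floor lie mostly above the upper dashed line, while sterol and fatty acid synthesis genes lie at or below 0.

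Genes of macrophages made up the largest named block among the higher genes. Of 107 measured genes on 5 lists (core macrophage genes, scavenger and lectin receptors, complement and Fc receptors, the Ms4a family and antigen presentation), 34 were at least 2-fold higher without serum, 31.8%, against 0.446% of all genes, and 0 were lower. The lists were chosen with earlier results of these data known. Shares of a list beside those of all genes, here and below, are therefore description only. The summed intensity of the 28 core macrophage genes was 6810 in serum, 15503 without serum and 11403 on the retinoic acid array. In a whole explant, more macrophages and more RNA of these genes per macrophage cannot be told apart.

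The genes that set up macrophage identity were among them. Spi1, which encodes PU.1, the transcription factor that directs the myeloid lineage, stood at 7.36 in serum and 8.96 without it, a 3.02-fold difference, with 8.44 on the retinoic acid array. Csf1r, which encodes the receptor for the growth factor that keeps macrophages alive, stood at 7.74 and 9.08, with 9.28 on the retinoic acid array. Irf8, a second lineage factor, stood at 6.98 and 7.98. Maf, a transcription factor of resident macrophages that other cells also use, was at 9.17 and 9.72, which is under 2-fold. Of the ligands of the CSF1 receptor, Csf1 stood at 7.50 in serum and 7.37 without it, and Il34, under the floor, at 5.81 on each array. Of the 28 core genes 14 were at least 2-fold higher and 0 lower, with 21 at the floor. Surface and signalling genes were among the 14. Cd68, a lysosomal glycoprotein gene used to stain macrophages, differed most, at 8.77 in serum, 10.70 without it and 9.54 on the retinoic acid array. Adgre1, which encodes the F4/80 antigen, stood at 7.47 and 8.65, Cx3cr1, the fractalkine receptor gene, at 7.57 and 8.76, and Cd53, a leukocyte tetraspanin gene, at 8.17 and 9.76. The adaptor genes Tyrobp (8.02 and 9.59) and Fcer1g (9.23 and 10.87) carry signals of many myeloid receptors. Laptm5, a lysosomal membrane gene of leukocytes, stood at 9.50 and 11.06, Mpeg1, which encodes the pore-forming protein perforin-2, at 7.50 and 9.29, and Ly86, a partner of a Toll-like receptor relative, at 7.82 and 9.17. Lyz2, the lysozyme gene of myeloid cells, stood at 9.27 and 10.38. Other core genes at the floor were under 2-fold apart, such as P2ry6 (0.73), Cybb (0.64), Lyz1 (0.40) and Mertk (0.25). Runx1 and Csf2ra had identical values on both arrays. Some markers lay under the floor on both arrays. Cd14 was at 5.27 and Siglech at 5.66 on each array, Ptprc, which encodes the leukocyte antigen CD45, at 6.51 and 7.09, and Aif1 at 5.61 and 6.54.

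Receptors by which macrophages take up dead cells, lipids and microbes included the largest increase of any gene. Of 30 scavenger and lectin receptor genes, 8 were higher, 26.7% against 0.446% of all genes, and 0 lower. The median of the whole list was 0.18, with 16 of its members under the floor. Gpnmb, a glycoprotein gene of phagocytic cells, stood at 9.15 in serum, 11.32 without it and 9.77 on the retinoic acid array. Cd36, which encodes a receptor for fatty acids and oxidised lipoproteins, stood at 9.20, 11.08 and 9.79 in the same order. Lgals3, the galectin-3 gene, stood at 8.17, 10.16 and 9.19 and Cd180, which encodes the receptor partner of Ly86, at 7.87, 9.84 and 9.01. Trem2, a lipid-sensing receptor gene that signals through Tyrobp, stood at 7.71, 9.43 and 8.67. Mrc1, the mannose receptor gene, was at 6.32, 8.27 and 7.25, and Clec7a, the beta-glucan receptor gene, at 6.79, 8.64 and 9.51. Stab1 stood at 7.81, 8.96 and 9.17. Clec7a and Stab1 were the called genes of this list with their highest level on the retinoic acid array. Timd4, a receptor for phosphatidylserine on dead cells, stood at 6.21, 6.88 and 8.62 and was under the floor on both arrays compared here. Cd163 and Marco had 1 value each on every array (4.42 and 5.47), Lyve1 was at 6.51 and 6.44, and Msr1 at 7.35 and 7.55.

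All 3 chains of C1q, the molecule that starts the classical complement pathway and tags dying cells, were higher. C1qa stood at 7.04 in serum and 8.44 without it, C1qb at 9.53 and 11.22, and C1qc at 8.49 and 10.34, and their values on the retinoic acid array were 8.50, 10.93 and 9.84. The receptor genes for antibody Fc parts and complement fragments joined them, with Fcgr3 at 7.15 and 8.63, Fcgr4 at 5.97 and 7.33, Fcgr1 at 6.80 and 7.83, and C3ar1 at 9.71 and 10.93. Fcgr2b, which encodes the inhibitory receptor, had the value 5.03 on both. Serping1, which encodes an inhibitor of C1, stood at 9.23 and 8.96, and the C1 protease genes C1s1 and C1ra lay under the floor on both arrays. Of 16 Ms4a genes, a family of membrane proteins with several macrophage members, 5 were higher, 31.25% against 0.446% of all genes. The other 11 lay under the floor on both arrays. Ms4a6c stood at 6.76 and 8.80, Ms4a6d at 7.59 and 9.59, Ms4a7 at 6.04 and 8.04, Ms4a4a at 6.57 and 8.41, and Ms4a6b at 6.06 and 7.26. The Ms4a4 and Ms4a6 genes have close copies, and probes can share signal between them.

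The upstream windows of 3 of these genes are printed because the genes were higher together and each holds the core of the PU.1 motif, GAGGAAG, which contains the GGAA shared by all ETS factors. Sequences are from RefSeq (GRCm38.p6), read 5′ to 3′ on the gene's strand, and capitals mark the match on either strand. The Mrc1 window is chr2:14229324-14229413 (plus strand, match from 36 to 30 bases before the start), that of P2ry13, a nucleotide receptor gene that stood at 6.18 in serum and 8.11 without it, chr3:59210883-59210972 (minus strand, 48 to 42 bases before) and that of C1qc chr4:136893061-136893150 (minus strand, 194 to 188 bases before).
Mrc1: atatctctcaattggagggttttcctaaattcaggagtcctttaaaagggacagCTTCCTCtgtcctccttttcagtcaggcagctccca
P2ry13: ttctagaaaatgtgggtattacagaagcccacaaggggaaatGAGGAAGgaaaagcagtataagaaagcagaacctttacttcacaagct
C1qc: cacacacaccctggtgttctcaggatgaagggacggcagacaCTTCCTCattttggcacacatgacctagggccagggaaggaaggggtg
In the 250 bases before the start the core was present in 17 of the 66 promoters searched for the core, scavenger and complement lists. For these lists 57 of 77 genes had a promoter in the search. The core was present in 10.6% of all 32851 promoters searched. Of the 16 genes with a match 8 were called and 8 were not, among them Marco and Csf2ra with identical values and Itgam at 0.06. The Mrc1 promoter holds 2 matches, 1 of them in the window. A match of letters does not show that the factor binds.

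**Figure D2:**
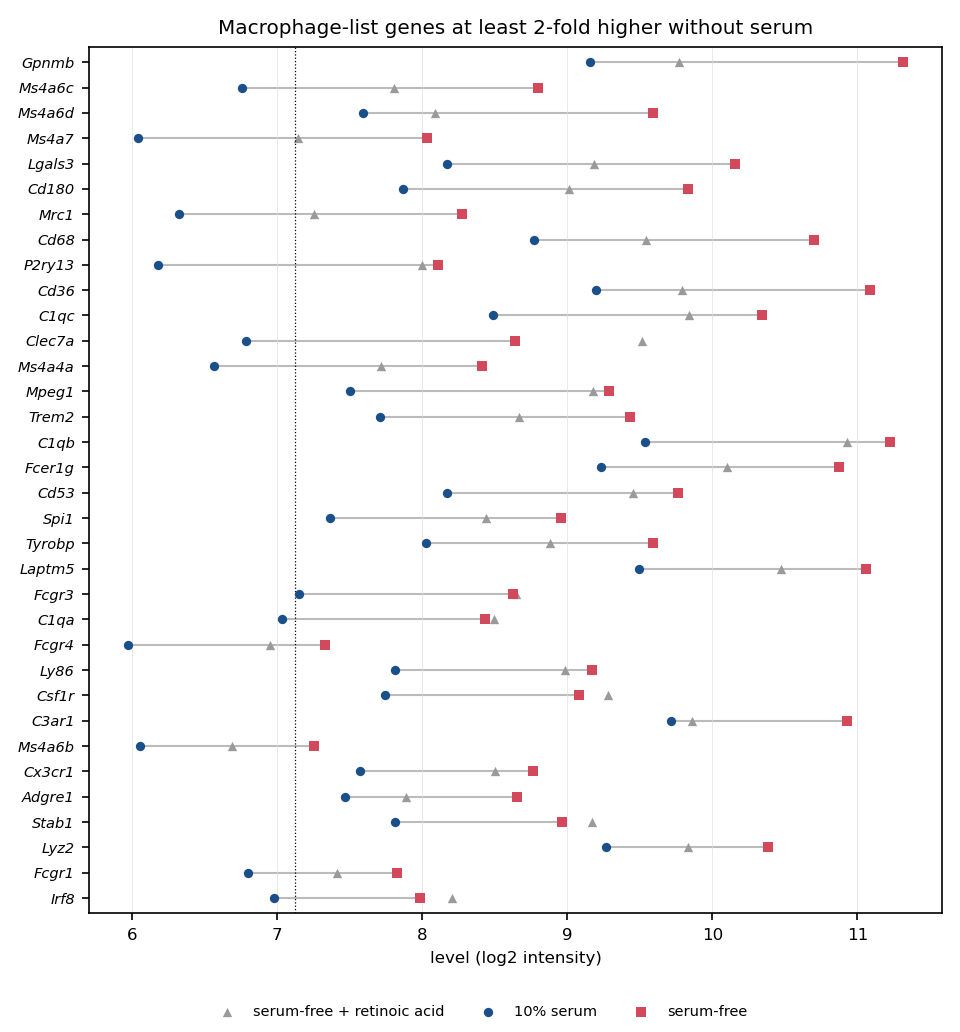
Level (log2 intensity) of the 34 macrophage-list genes that were at least 2-fold higher without serum, on the serum array (circles), the serum-free array (squares) and the retinoic acid array (triangles), ordered by difference. The dotted line is the floor of 7.12, and the triangles lie between the other marks except for C1qa, Clec7a, Csf1r, Fcgr3, Irf8 and Stab1, where they lie right of the square.

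Inflammatory cytokines were mostly under the floor, where no call can be made. Tnf had the value 5.54, Il1b 4.65 and Il6 2.63 on both arrays, all 3 of them there. The chemokine gene Ccl3 was higher, at 9.37 in serum and 10.91 without it, and Ccl9 stood at 7.31 and 8.06, while Ccl2 was at 7.26 and 7.24. Tgfb1 stood at 8.60 and 9.19, Ccl11 at 8.16 and 8.88, and Cxcl14 at 8.49 and 7.52. Of 14 antigen presentation genes 0 were called in either direction, and 4 reached the floor. H2-Aa and Cd74, which belong to MHC class II, had 1 value each (4.67 and 5.72), and H2-Ab1 stood at 7.21 and 6.58. The costimulator gene Cd86 stood at 5.38 and 5.96, and B2m, the light chain of MHC class I, at 12.36 and 12.52. Of 22 interferon response genes 0 were called, with 6 at the floor, and 0 of 21 genes of neutrophils, mast cells and lymphocytes, with 2 at the floor. With so few at the floor and 0.446% of all genes called, these counts say little. The neutrophil genes S100a8 and Elane had 1 value each (4.14 and 5.31), and the B cell gene Cd79a stood at 4.94 and 4.62.

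A further 40 higher genes belonged to none of the lists. They are described one by one, since no list fixes what they have in common. Il10ra, which encodes the receptor of the anti-inflammatory cytokine IL-10, stood at 5.68 in serum and 7.44 without it. Lcp2, an adaptor gene of immune receptors, stood at 6.57 and 8.26, Plek, a substrate of protein kinase C, at 6.85 and 8.46, and Nckap1l, the blood-cell subunit of the WAVE actin complex, at 7.37 and 8.70. Receptors for nucleic acids of engulfed material were among them: Tlr7 was at 5.68 and 7.28, Tlr13 at 6.96 and 8.11, and Unc93b1, which carries these receptors to the endosome, at 6.80 and 8.07. Entpd1, which degrades extracellular ATP, stood at 7.12 and 8.78, and Hpgds, which makes prostaglandin D2, at 6.91 and 8.57. The actin bundler gene of leukocytes, Lcp1, stood at 8.98 and 10.25, Myo1f, a leukocyte myosin gene, at 6.58 and 7.75, and Cyth4, a guanine exchange factor gene of blood cells, at 7.07 and 8.33. Among receptor genes of the cell surface, Cd33 stood at 5.95 and 7.54, Igsf6 at 7.50 and 9.12, Cd84 at 6.45 and 7.80, Cd28 at 5.88 and 7.56, Lilr4b at 7.28 and 8.39, and Vsir at 7.16 and 8.18. Ptafr, the receptor gene for platelet-activating factor, stood at 6.77 and 8.02, and Lgals9, the galectin-9 gene, at 7.91 and 9.03. Ifi207, of an interferon-inducible family with close copies, stood at 7.52 and 9.08. Apobec1, a cytidine deaminase gene, stood at 8.21 and 9.40, Npl, of sialic acid breakdown, at 7.72 and 8.98, and Rab7b, of endosome traffic, at 6.16 and 7.17. Plcd4 (5.95 and 7.30), Fam124b (6.02 and 7.20), Tmem106a (6.29 and 7.44) and Syngr1 (7.76 and 8.78) were higher too. Some genes of other tissues stood beside them, such as the potassium channel gene Kcnk9 (6.07 and 7.36), the developmental gene Mab21l2 (7.66 and 8.91) and Foxf2, a mesenchymal transcription factor gene of the Wnt and Hedgehog list (5.62 and 7.20).

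Of 43 measured lysosomal genes 2 passed 2-fold upward, 4.65% against 0.446% of all genes, and 0 were lower. Differences were above 0 for 37 and below 0 for 4, with a median of 0.22. Probe sets of 1 gene can disagree by 0.28 (95th percentile), which concerns single genes and not the median of a list. Among all 19938 genes 4518 differed above 0 and 6360 below. The 2 were proteases, Ctss (7.22 in serum and 8.45 without it), which is largely restricted to antigen-presenting and phagocytic cells, and Lgmn (10.08 and 11.26). The proteases Ctsz (10.06 and 11.05), Ctsd (11.11 and 12.06) and Ctsb (11.33 and 12.20) and the lipase gene Lipa (9.61 and 10.50) were close to 2-fold. Grn, the progranulin gene, stood at 11.01 and 11.73. Atp6v0d2, a proton pump subunit gene, stood at 5.22 and 6.12, under the floor. Widely expressed members ran from the enzyme genes Hexa (0.76) and Psap (0.60) and the cholesterol exporter gene Npc1 (0.45) to the membrane protein genes Lamp1 (0.19) and Lamp2 (0.02) and the protease gene Ctsl (-0.08).

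Genes of lipid handling split in 2 directions. Of 24 genes of cholesterol efflux and lipid storage, 6 were higher, 25% against 0.446% of all genes, and 0 lower, with a median of 0.38. Abca1 and Abcg1 encode the pumps that load cholesterol onto lipoproteins. Abca1 stood at 8.11 in serum, 9.58 without it and 10.23 on the retinoic acid array, and Abcg1 at 7.46, 8.84 and 8.57. The apolipoprotein gene Apoe stood at 10.94, 12.48 and 12.44, Apoc1 at 6.97, 8.17 and 8.40, and Plin2, which coats lipid droplets, at 9.64, 11.02 and 10.68. These 5 genes were lowest in serum. Cd36, the sixth, is also counted with the scavenger receptors, and macrophages express most of this list, so the part of the macrophage genes in it was not tested. Cpt1a, the gate for fatty acid burning in mitochondria, which was called but is on no list, stood at 9.24 and 10.36, Pdk4, which spares glucose, at 6.82 and 7.51, and Angptl4, which blocks lipoprotein lipase, at 7.65 and 8.64. These 3 are known targets of PPAR receptors. Fabp4, another such target, stood at 7.01 and 5.87, under the floor, and Pparg itself at 8.12 and 7.70.

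Of 20 measured genes of cholesterol synthesis all 20 were below 0 without serum, with a median of -0.75, and 2 were at least 2-fold lower. At the entry of the pathway Hmgcs1 stood at 10.75 in serum, 9.92 without it and 10.20 on the retinoic acid array. Idi1, which makes the isoprenoid building block, stood at 10.68, 9.35 and 9.71, and its second probe set gave -1.39 beside -1.32. Sqle, a rate-limiting oxygenase, stood at 10.68, 9.81 and 10.16, and Lss and Cyp51, which close and trim the sterol ring, at 9.57, 8.67 and 9.0 and at 10.00, 9.12 and 9.52. Insig1, a sensor that holds SREBP in the endoplasmic reticulum and is itself an SREBP target, stood at 10.95, 9.77 and 9.99. Of the 20, Idi1 and Insig1 passed 2-fold, which is 10.0% against 0.356% of all genes, and Msmo1 (10.85 and 9.87) came closest to it among the others, followed by Nsdhl (10.72 and 9.79). Pmvk and Ebp differed least, at -0.13 and -0.26, and the regulator gene Srebf2 stood at 10.28 and 9.88.

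The Hmgcs1 window is printed because it was the one member whose 250 upstream bases held the sterol element searched, TCACNCCAC on either strand, which 1.05% of all promoters hold. It is chr13:119690173-119690262 (plus strand), with the match, in capitals, from 137 to 129 bases before the start.
Hmgcs1: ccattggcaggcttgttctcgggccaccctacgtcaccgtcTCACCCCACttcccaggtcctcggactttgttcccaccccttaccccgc
Promoters of 16 of the 20 genes were found, and other spellings of the element were not searched.

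Of 20 genes of fatty acid synthesis 2 were at least 2-fold lower, 10.0% against 0.356% of all genes. Differences were below 0 for 18, with a median of -0.29. The desaturase gene Scd1 differed by -1.70 and stood at 9.30 without serum and 10.04 on the retinoic acid array. Me1, which makes NADPH for lipid synthesis, stood at 9.71, 8.34 and 8.24, and its second probe set gave -1.41 beside -1.38. Acsl4, which activates long fatty acids, stood at 9.60, 8.92 and 9.01, Elovl6, an elongase gene, at 11.30, 10.81 and 10.58, and Srebf1, which encodes the regulator of this pathway, at 8.83, 8.47 and 8.59. The synthase gene Fasn differed by only -0.11 and the carboxylase gene Acaca by -0.31. Mfsd2a, which encodes a transporter of lysophospholipids, was outside the lists and stood at 8.62 and 7.16.

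The transcription factor ATF4 controls genes of amino acid uptake and synthesis. Of 37 measured targets 31 were below 0, the median was -0.46, and 6 were at least 2-fold lower, 16.2% against 0.356% of all genes. The arginine and lysine transporter gene Slc7a3 stood at 8.84 in serum, 6.4 without it and 6.34 on the retinoic acid array. Chac1, which degrades glutathione, stood at 8.80, 7.33 and 7.31, Asns, which makes asparagine, at 11.50, 10.27 and 9.99, and Cth, which makes cysteine, at 8.86, 7.74 and 8.11. Aldh1l2, of mitochondrial folate metabolism, stood at 7.94, 6.34 and 6.56, and Arg2, a mitochondrial arginase gene, at 8.51, 6.53 and 7.61. For Slc7a3, Chac1 and Asns both arrays without serum lay close together and below the serum array. Serine synthesis was uneven, with Psat1 at -0.87 but Phgdh at -0.25, and tRNA synthetase genes ran from -0.68 (Cars) to -0.12 (Wars). The mRNA of Atf4 itself differed by -0.16. The stress genes Ddit3 and Trib3 differed by 0.03 and 0.00. Bcat1, which breaks down branched-chain amino acids, lay outside the list and stood at 9.11 and 7.88.

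The windows of Chac1 and Asns are printed because both were at least 2-fold lower and both hold the ATF4 element core, TGATGNAA on either strand. For Chac1 it is chr2:119351008-119351097 (plus strand, match from 193 to 186 bases before the start) and for Asns chr6:7693210-7693299 (minus strand, 23 to 16 bases before).
Chac1: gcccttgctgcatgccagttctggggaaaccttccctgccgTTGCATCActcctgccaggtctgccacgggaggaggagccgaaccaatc
Asns: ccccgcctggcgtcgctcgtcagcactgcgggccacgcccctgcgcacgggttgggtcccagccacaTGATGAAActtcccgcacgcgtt
The core was found in 7 of the 35 promoters searched for the list (29 of 37 genes had a promoter) and in 3.45% of all promoters. Of the 7 genes with a match 2 were called, beside 16.2% of the whole list and 0.356% of all genes that were lower. Those not called include Vldlr (-0.48), Pck2 (-0.41) and, under the floor, Slc7a11 (-0.86), Nupr1 (-0.34) and Fgf21 (0.25).

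Genes of glutathione and detoxification that depend on NRF2 had a median of -0.26 over 21 genes, with 17 below 0. Me1 and Nqo1 were the 2 at least 2-fold lower, 9.52% against 0.356% of all genes. Nqo1, a quinone reductase gene, stood at 8.48 in serum and 7.15 without it. Gclc, which makes the first step of glutathione synthesis, stood at 10.06 and 9.41 and the glutathione transferase gene Gsta4 at 10.43 and 9.94. Abcc4, an exporter gene, stood at 8.51 and 7.53, and the cystine transporter gene Slc7a11 at 6.52 and 5.66, under the floor. Hmox1, which degrades haem and is also high in macrophages, ran the other way, at 9.84 and 10.45, while Srxn1 had the value 8.11 on each. Of 25 metallothionein and selenoprotein genes Mt1 and Selenop passed 2-fold upward, 8.0% against 0.446% of all genes, and the median was 0.00. Mt1, which encodes a zinc-binding protein, stood at 8.24 and 9.39, Mt2 at 10.54 and 11.35 and Mt3 at 7.57 on each array. Selenop, which carries selenium out of cells, stood at 10.15 and 11.16, while the selenoenzyme genes Gpx1 and Gpx4 differed by 0.28 and 0.00. The transferrin gene Trf stood at 8.29 and 9.33, and the transferrin receptor gene Tfrc at 10.08 and 9.89. The ferritin genes Fth1 and Ftl1 differed by 0.27 and 0.17.

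**Figure D3:**
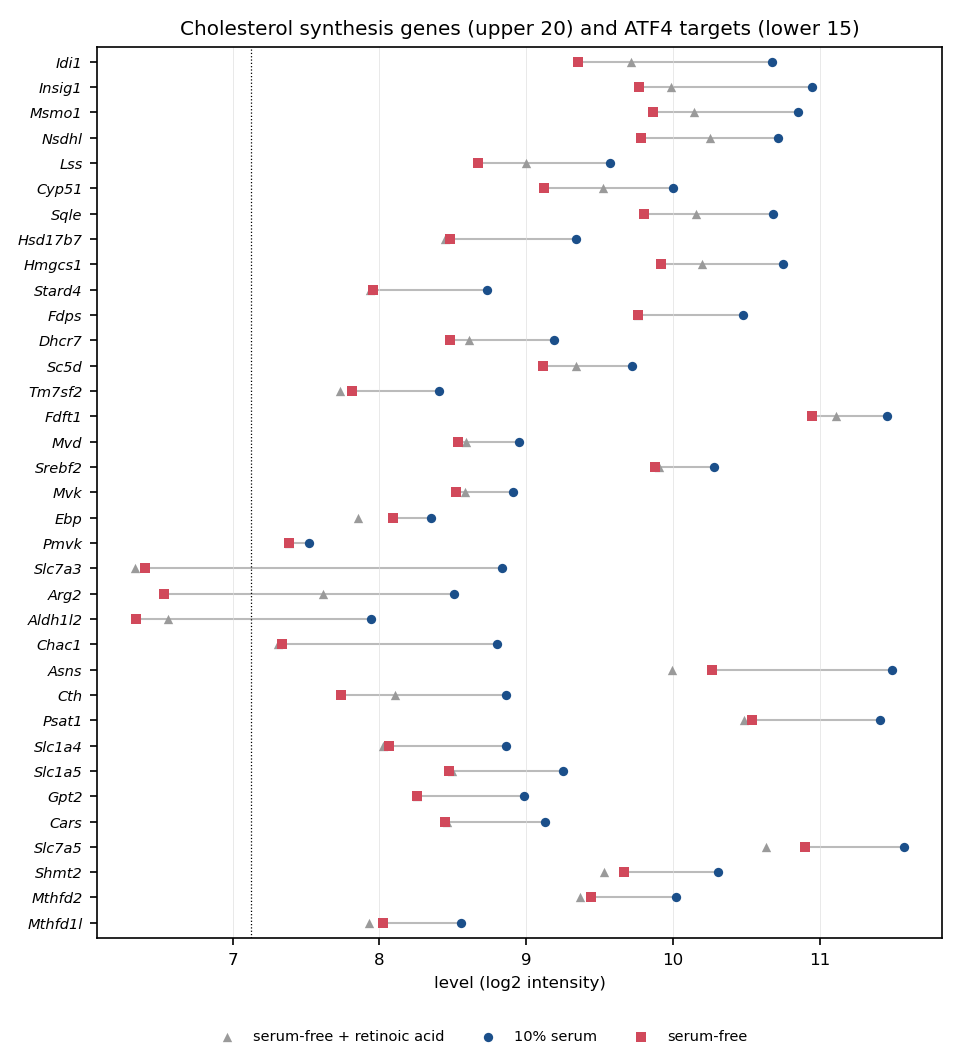
Level (log2 intensity) of the 20 cholesterol synthesis genes and of the 15 ATF4 targets of largest decrease among those at the floor, on the 3 arrays. Circles (serum) lie to the right of squares (serum-free) for each gene shown, and the dotted line is the floor of 7.12.

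Among genes of kidney development, those lower without serum were found on the lists of early nephrons, the bud tip and the bud trunk, and 1 on the list of nephron progenitors. As with macrophages, fewer cells of a kind and less RNA of these genes per cell cannot be told apart. Of 26 measured early nephron genes 7 were at least 2-fold lower, 26.9% against 0.356% of all genes, 0 were higher, and the median was -0.43. Wnt4 stood at 8.92 in serum, 7.49 without it and 8.92 on the retinoic acid array, and its second probe set gave -1.18 beside -1.43. Lhx1, a transcription factor gene of the renal vesicle and the bud, stood at 8.71, 6.79 and 8.07, and Pax8, which acts with it, at 10.62, 9.45 and 10.15. The Notch ligand gene Dll1 stood at 7.43, 6.42 and 7.43, and Jag1, another such ligand, at 9.65, 9.0 and 8.89, while the Notch target genes Hes1 and Hey1 differed by -0.09 and -0.18. Bmp2 stood at 8.07, 7.0 and 7.44. Papss2, which activates sulphate, stood at 8.73, 6.84 and 8.14 and Greb1 at 7.60, 6.39 and 6.90. Fgf8, which nascent nephrons need to survive, differed by -0.10, and the Wnt antagonist gene Dkk1 stood at 9.78, 8.82 and 7.86, its lowest level on the retinoic acid array.

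Of 19 tip genes 4 were at least 2-fold lower, 21.1% against 0.356% of all genes, and 0 higher, and the median was -0.48. Ret stood at 9.58 in serum, 8.42 without it and 9.92 on the retinoic acid array. Its co-receptor gene Gfra1 stood at 11.10, 10.36 and 11.25. Downstream of RET, Wnt11 stood at 8.19, 7.52 and 7.85, Etv4 at 8.65, 8.07 and 8.57, Etv5 at 10.34, 9.94 and 9.90, and the feedback inhibitor gene Spry1 at 10.90, 10.25 and 10.73, each of them under 2-fold. The transporter gene Slco4c1 stood at 7.76, 5.45 and 6.31 and the receptor kinase gene Ros1 at 8.09, 6.74 and 7.77. Lhx1 is on this list also. The ligand gene Gdnf, made in the mesenchyme, was at 9.41 and 9.31. In the trunk list 3 of 26 genes were lower, 11.5% against 0.356% of all genes. They were Calb1 (11.67, 9.73 and 11.91), which encodes the calcium binder calbindin, and the epithelial ETS factor genes Elf5 (7.22, 5.82 and 6.94) and Ehf (8.12, 6.96 and 7.01). The signal genes Wnt9b and Wnt7b, which the trunk uses to act on the mesenchyme, differed by -0.20 and -0.22. Among general epithelial genes, Krt19 was at -0.75, Cdh1 (E-cadherin) at -0.31, Epcam at -0.20, Krt18 at -0.17 and Krt8 at 0.08. The sodium channel subunit gene Scnn1b, outside the lists, stood at 8.29, 7.16 and 8.08.

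Among 25 nephron progenitor genes 1 was lower, Tmem100 (8.11, 7.0 and 7.57), which is 4.0% against 0.356% of all genes. The median was 0.00, and 0 were higher. Cited1, a marker of the least induced progenitors, stood at 9.82 in serum and 10.44 without it, Osr1 at 10.82 and 11.16, Crym at 9.07 and 9.43, and Meox1 at 8.69 and 8.19. Sall1, Pax2 and Gdnf differed by -0.12, -0.21 and -0.10. Stromal and ureter mesenchyme genes showed 0 of 27 at 2-fold. Foxd1, the stromal progenitor marker, stood at 9.66 and 9.43, and Tbx18, which marks the mesenchyme round the ureter, at 9.43 and 8.75. Foxc2 stood at 11.13 and 10.60, Gata6 at 10.03 and 9.56, and Fat4, a protocadherin gene of the stroma, at 9.53 and 9.93. Bmp4, made by that mesenchyme, stood at 10.72 and 9.99, and the BMP readout genes Id3, Id1 and Smad6 differed by -0.41, -0.18 and -0.66. Of 18 BMP genes 14 were below 0 and none above, and 0 were 2-fold apart. Of 19 Wnt and Hedgehog targets 1 was higher, Foxf2, which is 5.26% against 0.446% of all genes. Axin2 had the value 8.41 on each array, Lef1 stood at 8.75 and 8.37, and Lgr5 at 8.27 and 7.71.

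Contractile genes held some of the largest decreases. Of 28 measured genes 5 were at least 2-fold lower without serum, 17.9% against 0.356% of all genes, 0 were higher, and the median was -0.30. Cnn1, the calponin gene, stood at 9.54 in serum, 6.79 without it and 5.77 on the retinoic acid array, Tagln, which encodes an actin binder, at 9.76, 7.84 and 6.52, and Actg2, a smooth muscle actin gene, at 9.25, 7.07 and 5.67. Acta2, another smooth muscle actin gene, stood at 12.42, 11.11 and 9.72, and Myl9, a myosin light chain gene, at 10.99, 9.78 and 9.13. For these 5 the order was the same, highest in serum and lowest on the retinoic acid array. The myosin heavy chain gene Myh11 stood at 6.89, 5.89 and 5.89, under the floor. Other genes of the actin skeleton were under 2-fold apart, with Tpm1 at -0.51, Vcl at -0.47, Actn1 at -0.32 and Flna at -0.02. Des (0.05) and Tpm2 (0.18) had values above 0. The regulators Srf, Myocd and Mrtfa differed by -0.14, 0.14 and 0.00.

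The Myl9 window is printed because it is the member at least 2-fold lower whose 250 upstream bases held a CArG box, the site of the serum response factor SRF. It is chr2:156775263-156775352 (plus strand), with the box in capitals from 161 to 152 bases before the start.
Myl9: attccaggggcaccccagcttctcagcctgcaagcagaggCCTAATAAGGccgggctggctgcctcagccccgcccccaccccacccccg
A CArG box was found in 6 of the 25 promoters searched for the list (22 of 28 genes had a promoter) and in 1.47% of all promoters. The 5 other members that hold a CArG box, among them Vcl (-0.47), Cnn2 (-0.21) and Srf (-0.14), were under 2-fold apart.

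Of 24 targets of YAP, a sensor of cell tension that lipids in serum also act on, 2 were lower, 8.33% against 0.356% of all genes. They were Ccn2 (11.03 in serum, 8.98 without it and 8.27 on the retinoic acid array) and Ccn1 (10.28, 9.05 and 8.39), which encode secreted matricellular proteins. The others were closer to 0, with F3 at -0.78, Lats2 at -0.26, Amotl2 at -0.25 and Axl at -0.09, and the median was -0.05. Ankrd1 stood at 5.86 and 5.10, under the floor. The promoter of Ccn1 holds the TEAD core, GGAATG, which is common (12.6% of all promoters, and 7 of the 19 found for 17 of the 24 genes). Of the 7 genes with a match 1 was called, Ccn1, beside 8.33% of the whole list and 0.356% of all genes that were lower.

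Of 48 matrix genes 5 were lower, 10.4% against 0.356% of all genes, and 0 higher, with a median of -0.08. Ecm1 had the largest decrease of any gene, from 10.00 in serum to 7.17 without it, and stood at 12.52 on the retinoic acid array. The collagen and elastin cross-linker gene Lox stood at 10.01, 8.57 and 7.83 and the elastic fibre gene Fbln5 at 10.11, 8.95 and 9.15. Ogn, a small proteoglycan gene, stood at 8.69, 7.52 and 7.66, and Thbs2 at 8.54, 7.48 and 6.89. Of 44 collagen genes 0 were called, with Col1a1 at -0.09, Col1a2 at -0.10 and Col12a1, which differed most, at -0.74. Fbln2 (0.68), Postn (0.55) and Vcan (0.36) had values above 0. Of 19 TGF-beta targets those called were Ccn2 and Lox, 10.5% against 0.356% of all genes. Differences were below 0 for 15, with Thbs1 at -0.72 and Smad7 at -0.45.

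**Figure D4:**
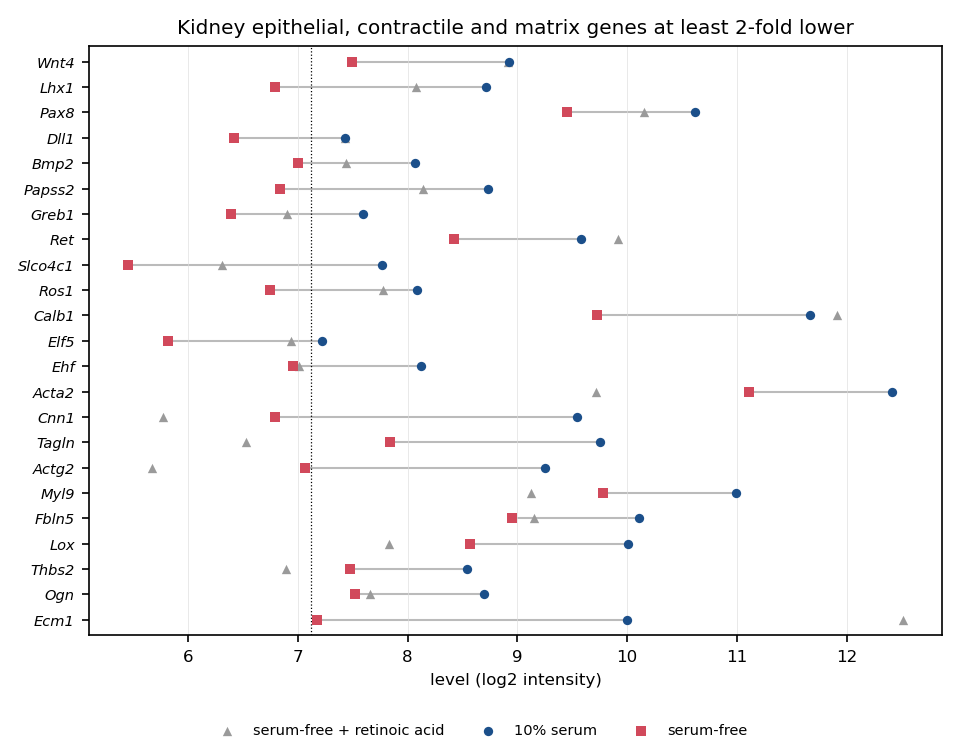
Level (log2 intensity) of the 23 genes of the early nephron, ureteric tip and trunk, contractile and matrix lists that were at least 2-fold lower without serum, on the 3 arrays. Squares (serum-free) lie left of circles (serum), and the triangles (retinoic acid array) lie near or right of the circles for Ret, Calb1, Wnt4, Dll1 and Ecm1 but left of the squares for the contractile genes, Lox and Thbs2.

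Genes that answer to small lipophilic hormones carried by serum were uneven. Of 23 retinoid genes 5 were lower, 21.7% against 0.356% of all genes, and 0 higher, with a median of -0.06. They were Ecm1, Rarb, Dhrs3, Aldh1a1 and Ret, of which Ecm1 and Ret are described above. Rarb, a retinoic acid receptor gene that is also a direct target, stood at 10.41 in serum, 8.43 without it and 11.37 on the retinoic acid array. Dhrs3, which reduces retinaldehyde, stood at 10.83, 8.73 and 12.05, and Stra6, the vitamin A uptake receptor gene, at 9.94, 9.14 and 10.70. Aldh1a1, one of the enzymes that make retinoic acid, stood at 8.41, 7.33 and 8.29. For Ecm1, Rarb, Dhrs3, Ret and Stra6 the serum value lay between both other arrays. The main synthetic enzyme genes went slightly the other way, with Aldh1a2 at 0.13 and Rdh10 at 0.23. Crabp1 had the largest increase of the list, at 0.61. Cyp26b1 stood at 6.63, 6.6 and 10.25, under the floor on both arrays compared here. Of 29 glucocorticoid and thyroid hormone targets 2 were lower, 6.90% against 0.356% of all genes, with 14 above 0 and 9 below. They were Me1 and Klf9, a transcription factor gene induced by both hormones that stood at 8.83, 7.08 and 8.39. Among the other members at the floor, Angptl4 was at 0.99, Mt2 at 0.81, Pdk4 at 0.69 and Sgk1 at 0.15. Below 0 were Errfi1 at -0.37, Fkbp5 at -0.26, Per1 at -0.12 and Tsc22d3 at -0.10. Thyroid targets Hr, Thrsp and Dio1 lay under the floor.

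After 48 h, of 27 immediate early genes, which respond to serum within hours, 0 were called and the median was 0.00. Fos stood at 6.44 and 6.33, Egr1 at 10.12 and 10.18, Jun at 9.82 and 10.09 and Myc at 11.23 and 10.92. Atf3 stood at 8.23 and 8.68 and Nr4a2 at 8.27 and 7.89. Ptgs2 stood at 7.05 and 5.77, under the floor. Of 20 ERK feedback genes 0 were called, with Dusp6 at 0.00, Spry2 at 0.04 and Spry4 at 0.12 beside the tip genes Spry1 and Etv4 (-0.65 and -0.58). In the IGF axis 1 of 16 genes was lower, 6.25% against 0.356% of all genes. It was Igfbp7 (11.59 in serum, 9.52 without it and 9.55 on the retinoic acid array), which encodes a secreted binding protein. Igf1 stood at 9.55, 10.34 and 10.26, Igfbp3 at 11.22, 11.73 and 11.82, and Igf2 at 13.03 on each array, while the starvation marker Igfbp1 was under the floor (5.50). Socs2, a growth hormone and STAT5 target outside the lists, stood at 9.34 and 8.27, but its second probe set gave -0.68 beside -1.07. Osmr, a receptor gene of the IL-6 family, stood at 7.25 and 5.84.

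Of the cell division genes 0 were called. All 33 mitosis genes were below 0, with a median of -0.26, from Cenpa at -0.51 to Mki67 at -0.02. The mitotic kinase genes Bub1 and Ttk stood at 10.85 and 10.42 and at 8.90 and 8.48, and Cdk1 at 11.30 and 11.13. Of 36 replication genes 26 were below 0, 9 equal and 1 above, with a median of -0.05, and Mcm2, Pcna and E2f1 had equal values. Among all genes at the floor 5181 were below 0, 1977 above and 2998 equal, so a small negative value was common. Ccnd1, the G1 cyclin gene, stood at 12.17 and 11.75. Quiescence and FOXO genes had a median of 0.07 over 24 genes. Gas6, a growth arrest gene whose protein bridges dead cells to phagocytes, stood at 9.03 and 9.52, while Gas1 differed by 0.07, Gas2 by -0.54, Cdkn1b by -0.04 and Ccng2 by 0.00. The p53 and cell death list had a median of 0.13 over 20 genes and 0 called, with Trp53inp1 at 0.47 and Bbc3 at 0.00. For 29 hypoxia and glycolysis genes the median was 0.00, with Vegfa at -0.25 and Egln3 at 0.54, and 23 oxidative phosphorylation genes one of -0.05. In the unfolded protein response 0 of 20 genes were called, with Hspa5 at -0.20 and Xbp1 at -0.42. Of 17 circadian genes 0 were called, with Nr1d2 and Dbp at -0.30 each.

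Of 30 endothelial genes 23 were above 0, 4 below and 0 called, and the median was 0.26. Cdh5, the vascular cadherin gene, stood at 10.89 in serum, 11.70 without it and 11.34 on the retinoic acid array, Pecam1 at 9.36, 9.89 and 9.63, and Kdr, the main VEGF receptor gene, at 8.78, 9.27 and 8.92. Dll4, the arterial Notch ligand gene, stood at 8.50, 9.21 and 8.68, and Sox7 at 8.88, 9.67 and 9.43. Apln, a peptide gene of sprouting tip cells, ran the other way (8.42, 7.44 and 7.86). The embryonic globin gene Hbb-y, of red cells, stood at 12.20 and 12.47. Among 16 genes of sympathetic and adrenal medulla precursors Chga and Dbh were at least 2-fold higher, 12.5% against 0.446% of all genes. The median of these 16 was 0.45. Dbh, which makes noradrenaline, stood at 8.21, 9.30 and 7.17, Chga, of secretory granules, at 8.13, 9.45 and 7.61, and Th at 6.69, 7.59 and 6.10, each lowest on the retinoic acid array. The lineage factor genes Phox2a and Hand2 stood at 7.06, 7.60 and 6.88 and at 7.88, 8.33 and 7.66. In the neuron and glia list 1 of 18 genes was higher, 5.56% against 0.446% of all genes. It was Gfra3, a receptor gene for artemin (7.77, 8.84 and 7.98), and the axon growth gene Gap43 stood at 8.08, 8.77 and 8.71. The glial gene Fabp7 stood at 9.15 and 9.97. Defining glial genes lay under the floor and had equal values (Sox10 at 6.26, Foxd3 at 5.87), and adrenal cortex and gonad genes lay under the floor throughout.

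**Figure D5:**
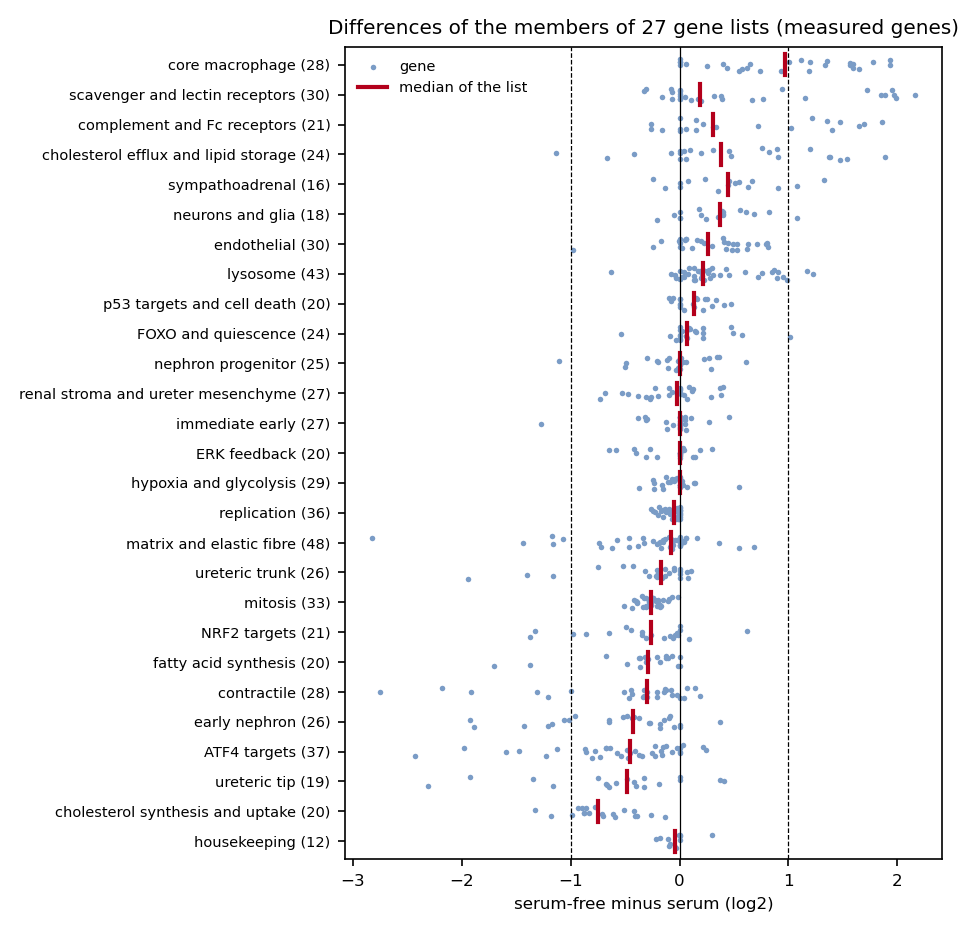
Differences (log2, serum-free minus serum) of the measured members of 27 gene lists, with 1 point per gene, vertical bars at the list medians and the number of measured genes in brackets. The medians run from 0.97 for core macrophage genes to -0.75 for cholesterol synthesis, and housekeeping genes lie near 0 (-0.04).

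Of the 71 lower genes 26 were on no list, and a few listed ones remain. Car4, a membrane carbonic anhydrase gene of the carbonic anhydrase list, had the largest decrease among genes not yet described, at 9.14 in serum, 6.76 without it and 6.97 on the retinoic acid array, while Car3 stood at 9.83, 8.95 and 9.97 and Car2 at 8.26, 7.89 and 8.53. The listed cytokine genes Tnfsf13b (7.90, 5.83 and 9.65) and Il33 (9.05, 7.80 and 10.04) and the unlisted transglutaminase gene Tgm5 (7.66, 5.78 and 8.24) were lowest without serum and highest on the retinoic acid array. Cyp7b1, which hydroxylates oxysterols, stood at 8.74, 6.92 and 9.01. Map3k7cl (8.94, 7.0 and 6.4) and the potassium channel subunit gene Kcne3 (8.15, 6.91 and 5.97) had their lowest level on the retinoic acid array, as the contractile genes did. Clu, the clusterin gene, stood at 8.79, 7.45 and 7.86, Svopl, a transporter-like gene, at 8.27, 6.37 and 6.72, and Hapln1, which links hyaluronan to proteoglycans, at 7.74, 6.33 and 8.44. Sim1, a transcription factor gene, stood at 8.26, 7.19 and 7.41, and Oxtr, the oxytocin receptor gene, at 7.32, 6.14 and 6.81. Pcp4, which encodes a calmodulin-binding peptide, stood at 9.60, 8.08 and 9.95, and Vsnl1, a neuronal calcium sensor gene, at 9.22, 7.80 and 8.91. The peptidase gene Cpm (8.95, 7.92 and 9.61), the GABA receptor subunit gene Gabra3 (8.45, 7.38 and 9.37) and Pcp4 were highest on the retinoic acid array. Gpx6 stood at 8.03, 6.48 and 7.24, Hsd17b14, a steroid dehydrogenase gene, at 8.03, 6.75 and 6.75, and Tmem52b at 7.17, 5.70 and 5.70. Fhl2, a LIM domain cofactor gene, stood at 8.83, 7.70 and 8.16, Ano1, a chloride channel gene, at 8.98, 7.96 and 8.75, Minar2 at 8.96, 7.79 and 7.78, and Tmem150c at 8.47, 7.27 and 8.43.

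Families were also picked by symbol, after the data were seen, and their counts are read against 0.446% higher and 0.356% lower of all genes. Of 362 solute carrier genes 2 were higher and 1 lower, the peptide transporter gene Slc15a3 (7.04 and 8.37), the sodium-proton exchanger gene Slc9a9 (6.53 and 7.68) and Slc7a3. Of 48 ABC transporter genes 3 were higher, Abca1, Abcg1 and Abcc3 (6.95 and 8.05), which is 6.25%. Of 10 Toll-like receptor genes 2 were higher (Tlr7 and Tlr13, 20%), and of 20 aldehyde dehydrogenase genes 2 were lower (Aldh1l2 and Aldh1a1, 10.0%). Of 37 HOX genes, which set position along the body, 0 were called and the differences ran from -0.63 (Hoxc8) to 0.16 (Hoxd12). Ribosomal protein genes lay between -0.21 (Rplp0) and 0.10 (Rpl41) over 60 genes.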

How the data were processed

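Per the submitters' processing notes, the authors made the deposited values with Affymetrix Expression Console 1.1 and RMA from Mouse Gene 1.0 ST arrays. The deposited intensity values are probe set summaries on a linear scale. The sources used here do not give the options chosen. Array values carry no depth, and the number of arrays limits the precision. From there, log2 was taken with no further scaling. Of 35556 probe sets, 21789 had 1 symbol, and each gene was represented by its probe set with the highest mean over the 3 arrays. With only 3 arrays, the median polish in RMA can give several arrays an identical number. The serum and serum-free values were identical for 45.4% of genes, so identical values are no measure of equal expression.

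Genes were compared by size only, with no p-value, because each medium has 1 array. The median difference, the counts past 2-fold and the sign counts were computed for 49 lists with Python 3.11.15, pandas 2.3.3 and numpy 2.4.6. A run on simulated data, with differences set well past the rule and little noise, checked the code only. It says nothing on error in the calls. Members and lists were chosen with earlier results of these data known, so their shares beside those of all genes support nothing on their own. Of 1138 list symbols 72 were not measured at gene level and 2 were found by a synonym. Named genes were the 40 largest differences per direction without gene models and multi-copy families, list members past 2-fold, and of each list described up to 4 genes from its head and up to 6 of its largest differences. Other genes were chosen after their values were seen, to show members that did not differ. Both comparisons against serum share the serum array, so values of the retinoic acid array are only set side by side. Alternatives were a constant of 32 added to intensities, cyclic loess (limma 3.58.1), median centring, other floors, other fold sizes and other choices of probe set. Promoters are 250 bases before RefSeq starts (GRCm38.p6), searched on both strands, each motif on its own.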

Additional observations from a re-analysis of the deposited data

Results flagged for a closer look

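Probe sets outside the gene-level comparison also differed, on the same size rule. Of 1621 probe sets with several symbols, the serum-free value was at least 2-fold higher in 49, by 1.01 to 1.82, and lower in 0. These carried 19 different symbol sets, and 24 of them named Snord116 small RNA copies, 9 the Y-linked multi-copy Ssty genes and 4 the Speer genes. In 25 of the 49 the serum value lay under the floor. Of 12146 probe sets without a name in the table used here, 99 were higher and 17 lower. For comparison, 90 of the 21789 probe sets with 1 symbol were higher and 74 lower. Of all genes, 0.446% were higher and 0.356% lower. The higher calls at gene level also include the small RNA entries Mir680-2 (7.51 in serum and 9.30 without it) and Mir692-1 (9.83 and 11.34), which the naming rule leaves out. What these probe sets share with the other differences was not tested.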

How the results depend on the processing

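With 32 added to the intensities, 128 of the 160 called genes kept their call and 32 fell under 2-fold, with cyclic loess 158 kept it and 2 did not, and with median centring all 160 kept it. The median of all genes moved to -0.01 with cyclic loess and 0.01 with median centring. A floor at the 75th percentile gave 40 higher and 32 lower genes, a size of 1.5-fold 204 and 210, and 3-fold 30 and 23. The fewer or more calls follow from the rule itself. For list medians a cut-off of 0.28 was used, the 95th percentile of disagreement between probe sets of a gene. It concerns single genes, so a smaller move does not show how steady a median is. List medians moved by more than this only where the floor was moved and low members left out. At the 25th percentile they became 0.53 for scavenger and lectin receptors, 0.72 for complement and Fc receptors and 1.52 for the Ms4a family. At the 75th percentile they became 1.57 for core macrophage genes, 1.72, 1.65 and 2.0 for the same 3 lists, 0.35 for erythroid cells, 1.08 for sympathoadrenal genes, 0.83 for cholesterol efflux, -0.29 for the interferon response, -1.63 for carbonic anhydrases and 0.64 for sex-linked transcripts, where Xist alone was left. No paired analysis was possible because each medium has 1 array.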
